A study of Homo sapiens with 12 samples.

Results

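The 10 genes described here encode the kinases that drive mitosis, their activators and the chromosomal passenger complex: AURKB, INCENP, BIRC5, CDCA8, AURKA, TPX2, BORA, PLK1, NEK2 and MASTL. They were chosen by name for these functions, with earlier results of these data known. All 10 of them were among the 58233 genes counted and among the 16657 genes with enough reads to be tested. RNA was sequenced from HCT116 cells, a human colorectal carcinoma line, of which all groups carry OsTIR1 under a tetracycline-inducible promoter at AAVS1. Parental HCT116 Tet-OsTIR1 cells were compared with SDS22-degron cells, in which the endogenous SDS22 gene, PPP1R7, also carries a C-terminal mAID-mClover tag. Cells of both lines received no treatment or, for 48 h, 2 µg/ml doxycycline (Dox), which induces OsTIR1, and 500 µM of the auxin IAA, which then targets the tagged SDS22 for degradation. There were 3 libraries in each of the 4 groups. The SDS22-degron line was grown from isolated colonies, so differences between the untreated lines cannot be told apart from differences between clones.

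Aurora B is the kinase of the chromosomal passenger complex, in which INCENP is the scaffold and activator and in which BIRC5 (survivin) and CDCA8 (borealin) bring the complex to centromeres. The complex corrects faulty attachments of chromosomes to the spindle and is needed for cytokinesis. Aurora A acts at spindle poles together with TPX2, and BORA allows Aurora A to activate PLK1 for the entry into mitosis. Protein phosphatase-1 (PP1), of which SDS22 is a partner, removes phosphates placed by these kinases. Their transcripts are known to accumulate in G2 and mitosis and to fall in cells that leave the cell cycle.

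Between 12133915 and 14657508 reads were counted on genes per library. Levels are given as CPM (counts scaled to a common library size) normalized by TMM, and always for replicates 1, 2 and 3 in this order. The transcript of PPP1R7 itself is no check of the degradation, which acts on the protein, and its log2 fold change with Dox/IAA in SDS22-degron cells was 0.12 ± 0.09 (SE, n = 3). The epithelial markers EPCAM, KRT8, KRT18, KRT19 and CDH1 were expressed in all libraries, whereas VIL1 and CEACAM5, which also mark intestinal epithelium, had 0 to 3 counts. Among the markers of immune, fibroblast and endothelial cells, PTPRC, CD3E, COL1A2, DCN and PECAM1 had 0 or 1 count, VWF had 3 to 20 counts and COL1A1 had 117 to 410 counts. The whole list summed to 10.6 to 13.8 CPM in untreated parental cells, 17.5 to 23.1 in Dox/IAA-treated parental cells, 14.4 to 16 in untreated SDS22-degron cells and 22.3 to 32.9 in Dox/IAA-treated SDS22-degron cells. Most of that sum came from COL1A1, which was called higher with Dox/IAA in both lines, by 0.81 ± 0.16 in parental and 0.94 ± 0.15 in SDS22-degron cells on the log2 scale. VWF was called higher in SDS22-degron cells (1.05 ± 0.38, adjusted p = 0.0261). Among the epithelial markers, CDH1 was called higher in parental (0.36 ± 0.13) and SDS22-degron cells (1.00 ± 0.13), and KRT8 and KRT18 were called lower in both lines. The part of these markers in the results below was not tested.

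Promoters of G2/M genes often hold a CHR element, which binds the MuvB complexes that repress or activate these genes, and CCAAT boxes, which bind NF-Y. The stretches below show where the CHR letters lie in 4 of the members. Windows of 250 bases before to 50 bases after the transcription start were taken from RefSeq (GRCh38.p14) and matched 7 of the 10 members, whereas AURKA, BIRC5 and TPX2 were not matched. The letters TTTGAA or TTCGAA, searched on both strands, were found in 5 of these 7 genes (INCENP, CDCA8, PLK1, BORA and MASTL), and in 16.4% of the 35116 RefSeq windows. CCAAT, searched on both strands, was found in 6 of the 7 genes (not in MASTL) and in 34.6% of all windows. The E2F letters TTTGGCG or TTTCGCG or TTTCCCG or TTTGCCG were found in 1 of the 7 genes, MASTL, and in 8.67% of all windows. TTTGAA stood close to the start in 4 members, at position -10 in INCENP, -23 in CDCA8, -29 in PLK1 and 3 in MASTL, where 1 is the first transcribed base. In CDCA8, its last base is also the first base of an ATTGG, the reverse complement of CCAAT. The NEK2 window, shown for contrast, held 2 CCAAT boxes and no match to the CHR letters. The windows of AURKB, not shown, held no match to the CHR letters either. With Dox/IAA in SDS22-degron cells, AURKB fell the most of the 10 genes (log2 fold change -1.64) and MASTL, which holds these letters, the least (-0.75). A relation between the letters and the size of the fall was not tested. Each stretch below runs 5′ to 3′ on the strand of the gene from 120 bases before the start to 30 bases after it, with the CHR letters in capitals. A match is a description of the sequence and was not tested as a binding site.
INCENP, chr11:62123891-62124040, plus strand: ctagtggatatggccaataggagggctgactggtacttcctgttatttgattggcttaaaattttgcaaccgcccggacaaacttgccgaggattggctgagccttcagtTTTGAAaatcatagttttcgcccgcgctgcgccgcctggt
CDCA8, chr1:37692396-37692545, plus strand: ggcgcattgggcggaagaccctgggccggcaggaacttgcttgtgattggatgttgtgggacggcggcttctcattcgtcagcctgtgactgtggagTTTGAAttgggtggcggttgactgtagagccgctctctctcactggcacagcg
PLK1, chr16:23678769-23678918, plus strand: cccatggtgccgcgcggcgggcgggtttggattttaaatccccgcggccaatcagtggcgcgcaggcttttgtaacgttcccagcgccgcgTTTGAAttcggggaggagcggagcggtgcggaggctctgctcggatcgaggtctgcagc
MASTL, chr10:27155232-27155381, plus strand: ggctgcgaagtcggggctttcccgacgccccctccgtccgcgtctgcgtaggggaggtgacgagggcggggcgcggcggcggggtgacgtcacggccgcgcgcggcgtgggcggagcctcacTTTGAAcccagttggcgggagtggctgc
NEK2, chr1:211675592-211675741, minus strand: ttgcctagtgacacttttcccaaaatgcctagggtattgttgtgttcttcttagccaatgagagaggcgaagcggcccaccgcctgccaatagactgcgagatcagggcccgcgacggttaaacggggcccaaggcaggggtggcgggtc

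The first question was what Dox/IAA did to the 10 transcripts when SDS22 could be degraded. All 10 of them were lower in Dox/IAA-treated than in untreated SDS22-degron cells, and for each gene the 3 treated libraries lay below the 3 untreated ones. The 4 genes of the passenger complex fell to between 32.1% and 51.2% of their untreated level, the Aurora A and PLK1 module to between 34.9% and 43.0%, and NEK2 and MASTL to 50.4% and 59.4%. Together the 10 genes made up 1288 ± 15.5 CPM (SD, n = 3) in untreated SDS22-degron cells and 495 ± 41.7 CPM after Dox/IAA. Over all tested genes, 25.5% were called lower and 26.0% higher by the quasi-likelihood F test of edgeR at a Benjamini-Hochberg adjusted p under 0.05, and the libraries of 29.7% did not overlap in the lower direction. The median log2 fold change was -1.39 for the 10 members and 0.0046 for all tested genes. In bulk RNA, fewer cells in G2 and mitosis and less of a transcript per cell cannot be told apart.

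**Figure D1:**
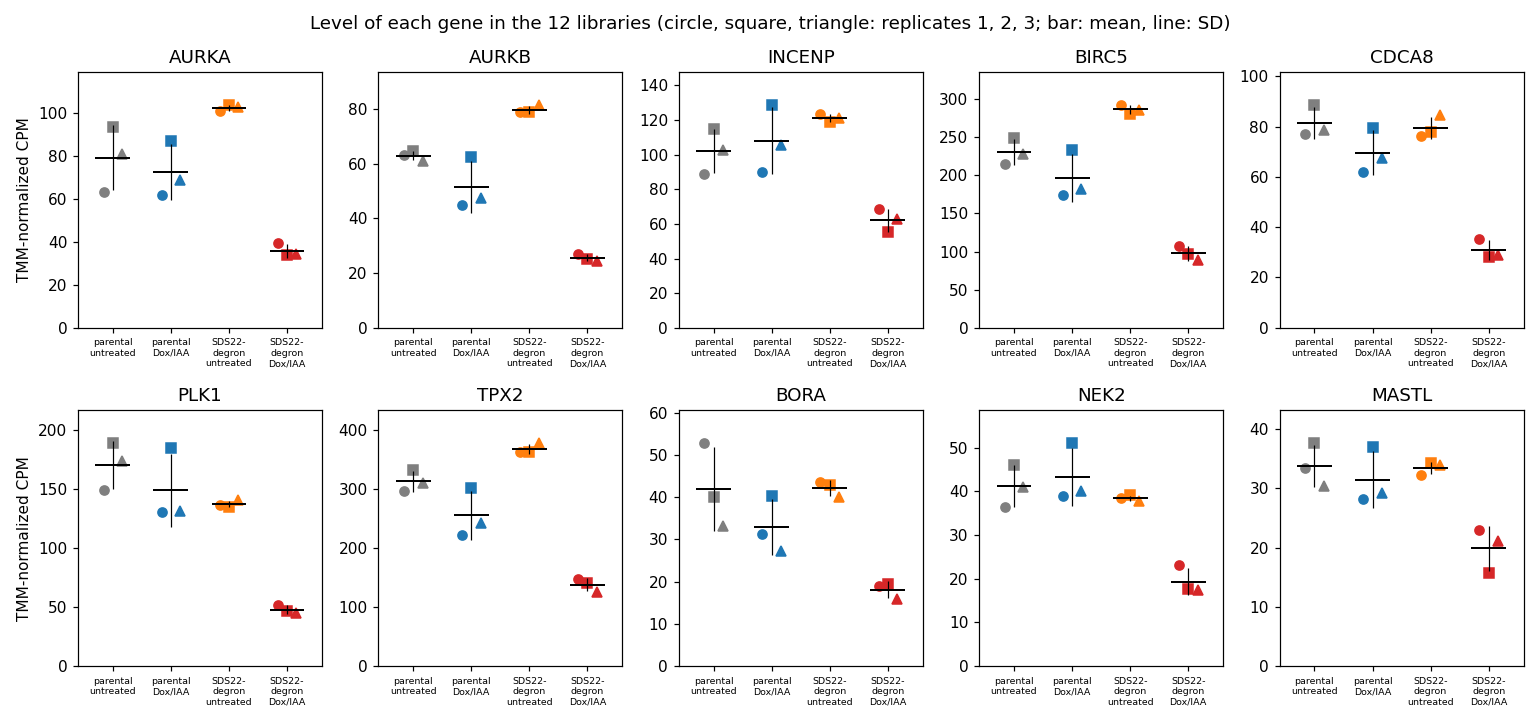
TMM-normalized CPM (vertical axes, from 0) of each of the 10 genes in the 12 libraries, grouped by line and treatment, with each point 1 library, the bar the mean and the line the SD of 3 libraries. In all 10 panels the Dox/IAA-treated SDS22-degron libraries are below the untreated ones of the same line, whereas both parental groups overlap.

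AURKB, the catalytic subunit of the passenger complex (ENSG00000178999, chromosome 17, 8204733 to 8210600, minus strand, GRCh38), was at 63.2, 64.5 and 61.1 CPM in untreated parental cells, 45.0, 62.5 and 47.4 in Dox/IAA-treated parental cells, 78.8, 79.0 and 81.3 in untreated SDS22-degron cells and 26.9, 25.2 and 24.5 after Dox/IAA treatment of the same line. The Dox/IAA-treated SDS22-degron libraries were lowest by far and close to each other. With a log2 fold change of -1.64 ± 0.10 (SE, n = 3), AURKB fell the most of the 10 genes in SDS22-degron cells (adjusted p = 1.09e-09). INCENP, the scaffold that binds and activates Aurora B (ENSG00000149503, chromosome 11, 62123973 to 62153163, plus strand), was at 89.0, 115 and 103 CPM in untreated parental cells, 90.2, 129 and 105 in Dox/IAA-treated parental cells, 124, 119 and 121 in untreated SDS22-degron cells and 68.5, 55.1 and 62.8 after Dox/IAA treatment of the same line. It fell less than AURKB, by 0.97 ± 0.11 on the log2 scale in SDS22-degron cells, and in parental cells both groups overlapped widely. BIRC5, or survivin (ENSG00000089685, chromosome 17, 78214186 to 78225636, plus strand), which binds phosphorylated histone H3 at centromeres, was at 215, 249 and 228 CPM in untreated parental cells, 175, 233 and 182 in Dox/IAA-treated parental cells, 292, 281 and 286 in untreated SDS22-degron cells and 107, 96.9 and 88.5 after Dox/IAA treatment of the same line. It was highest in untreated SDS22-degron cells, and with Dox/IAA it fell by 1.55 ± 0.10 on the log2 scale in this line. CDCA8, or borealin (ENSG00000134690, chromosome 1, 37692418 to 37709719, plus strand), which links the complex to centromeric chromatin, was at 77.1, 88.5 and 78.7 CPM in untreated parental cells, 62.0, 79.5 and 67.3 in Dox/IAA-treated parental cells, 76.1, 77.7 and 84.5 in untreated SDS22-degron cells and 35.3, 28.1 and 29.0 after Dox/IAA treatment of the same line. Its levels in the untreated lines overlapped, and it fell by 1.37 ± 0.10 on the log2 scale in SDS22-degron cells.

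AURKA, the spindle pole kinase (ENSG00000087586, chromosome 20, 56369389 to 56392337, minus strand), was at 63.3, 93.4 and 81.1 CPM in untreated parental cells, 61.9, 87.0 and 68.8 in Dox/IAA-treated parental cells, 101, 104 and 103 in untreated SDS22-degron cells and 39.6, 33.8 and 34.3 after Dox/IAA treatment of the same line. The parental libraries spread far more than those of SDS22-degron cells, in which AURKA fell by 1.51 ± 0.13 on the log2 scale. TPX2, the spindle assembly factor that holds Aurora A in its active form (ENSG00000088325, chromosome 20, 31739271 to 31801805, plus strand), was at 297, 332 and 310.0 CPM in untreated parental cells, 221, 302 and 242 in Dox/IAA-treated parental cells, 362, 363 and 377 in untreated SDS22-degron cells and 148, 140.1 and 126 after Dox/IAA treatment of the same line. It had the highest CPM of the 10 genes and fell by 1.41 ± 0.09 on the log2 scale in SDS22-degron cells. BORA, the Aurora A cofactor (ENSG00000136122, chromosome 13, 72727749 to 72756198, plus strand), was at 52.8, 40.0 and 33.1 CPM in untreated parental cells, 31.3, 40.2 and 27.2 in Dox/IAA-treated parental cells, 43.5, 43.0 and 40.2 in untreated SDS22-degron cells and 19.1, 19.5 and 15.8 after Dox/IAA treatment of the same line. In SDS22-degron cells it fell by 1.22 ± 0.15 on the log2 scale, with the largest SE of the 10. PLK1, the kinase that Aurora A and BORA activate (ENSG00000166851, chromosome 16, 23677656 to 23690367, plus strand), was at 149, 189 and 174 CPM in untreated parental cells, 131, 185 and 132 in Dox/IAA-treated parental cells, 137, 135 and 141 in untreated SDS22-degron cells and 51.9, 46.8 and 45.1 after Dox/IAA treatment of the same line. It fell by 1.52 ± 0.12 on the log2 scale in SDS22-degron cells, in which its untreated level lay below that of 4 of the 6 parental libraries.

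NEK2, which splits the paired centrosomes at mitotic entry (ENSG00000117650, chromosome 1, 211658657 to 211675630, minus strand), was at 36.4, 46.0 and 41.0 CPM in untreated parental cells, 39.0, 51.0 and 40.0 in Dox/IAA-treated parental cells, 38.4, 39.1 and 37.9 in untreated SDS22-degron cells and 23, 17.7 and 17.3 after Dox/IAA treatment of the same line. The first 3 of these groups overlapped, and the last lay apart from them with a log2 fold change of -0.99 ± 0.12 to untreated SDS22-degron cells. MASTL, the Greatwall kinase that keeps protein phosphatase-2A with its B55 subunit inhibited during mitosis (ENSG00000120539, chromosome 10, 27154824 to 27186924, plus strand), was at 33.4, 37.6 and 30.5 CPM in untreated parental cells, 28.3, 37.1 and 29.2 in Dox/IAA-treated parental cells, 32.2, 34.3 and 33.9 in untreated SDS22-degron cells and 23, 15.6 and 21.1 after Dox/IAA treatment of the same line. MASTL had the smallest fall of the 10 genes in SDS22-degron cells, 0.75 ± 0.13 on the log2 scale, with the largest adjusted p, 8.17e-05. Of the 10 genes, 7 also passed a cut-off of an unadjusted p under 0.05 with an absolute log2 fold change above 1, against 4.02% of all tested genes in the lower direction, whereas NEK2, INCENP and MASTL did not reach this size.

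Some of these values could hold reads of other genes, since the strand setting of the authors' counting is not given in the sources used here. Whether they do was not tested. BORA overlaps DIS3, an exosome nuclease on the opposite strand, over 4030 bases, and MASTL overlaps YME1L1, a mitochondrial protease on the opposite strand, over 443 bases. Both neighbours had more counts than the member, and neither was called in SDS22-degron cells, in which the log2 fold change with Dox/IAA was -0.08 ± 0.06 for DIS3 and 0.02 ± 0.06 for YME1L1. In parental cells, DIS3 was called lower with Dox/IAA by the same F test (-0.18 ± 0.06, adjusted p = 0.0338), and YME1L1 was not called (0.07 ± 0.06). NEK2 has a processed pseudogene, NEK2P4, with 28 to 85 counts per library, or 12.6% of the counts of NEK2. NEK2P4 fell by 0.97 ± 0.20 on the log2 scale in SDS22-degron cells, close to NEK2 itself. FDPSP8, a pseudogene within NEK2 on the same strand, had 30 to 60 counts and a log2 fold change of 0.39 ± 0.25. PLK1 shares 42 bases with ERN2, which had 2 to 11 counts, and AURKA has the pseudogene AURKAPS1 with 0 or 1 count.

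The same treatment of parental cells is the control for Dox, IAA and the induction of OsTIR1. In parental cells, AURKB and TPX2 were called lower after Dox/IAA, by 0.29 ± 0.09 (adjusted p = 0.0271) and 0.30 ± 0.09 (adjusted p = 0.0193) on the log2 scale. These 2 of 10 members compare with 15.7% of all tested genes called lower and 15.9% called higher. The other 8 members had log2 fold changes between -0.35 (BORA) and 0.08 (INCENP), which did not pass the test, and the libraries of both parental groups overlapped for every member. The median was -0.21 for the 10 members. With the replicate number as a block, since same-numbered parental libraries deviated together, 4 members were called lower in parental cells, with BIRC5 (adjusted p = 0.0306) and BORA (adjusted p = 0.0199) added. Replicate 2 stood apart in Dox/IAA-treated parental cells, where the 10 genes summed to 1205 CPM against 884 and 941 CPM in replicates 1 and 3. It was also the highest in untreated parental cells, with 1255 CPM against 1076 and 1141 CPM. Without Dox/IAA-treated parental replicate 2, 6 members were called lower. Without Dox/IAA-treated replicate 1, Dox/IAA-treated replicate 3 or untreated replicate 2 of the parental cells the number was 0. At an unadjusted p under 0.05, 5 of the 10 members were lower in parental cells, against 20.6% of all tested genes.

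**Figure D2:**
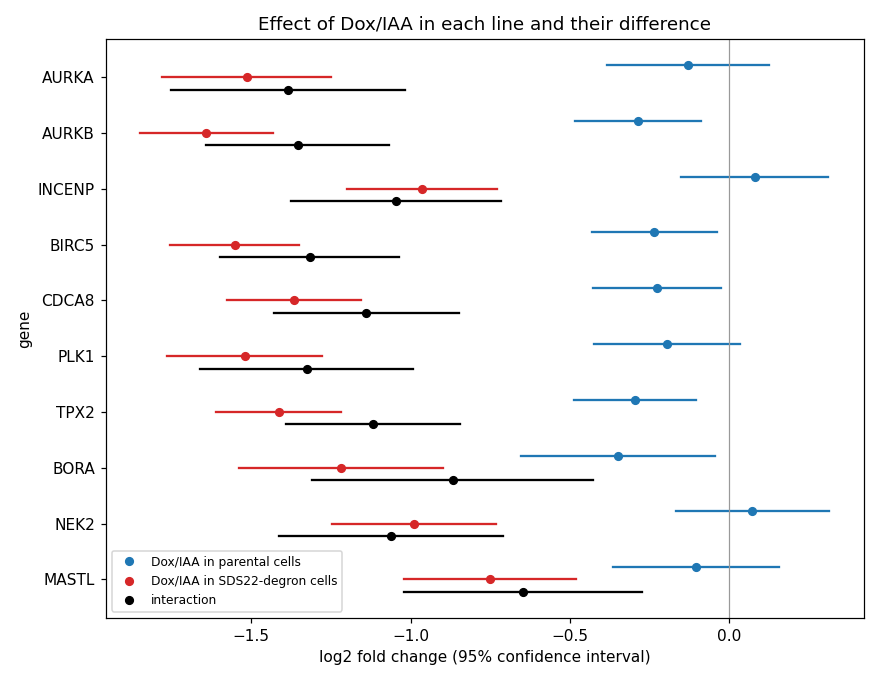
Log2 fold change (horizontal axis) of each gene with Dox/IAA in parental cells (blue), in SDS22-degron cells (red) and the difference between both (interaction, black), with 95% confidence intervals from the edgeR fit. The red and black intervals lie below 0 for all 10 genes, and the blue values lie between -0.35 and 0.08.

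The difference between both Dox/IAA effects was tested directly as an interaction. It was below 0 for all 10 genes and was called for all of them, against 8.35% of all tested genes called lower and 6.03% called higher. The median difference was -1.13 on the log2 scale for the members and -0.0019 for all tested genes. AURKA had the largest difference, -1.38 ± 0.18 (SE, n = 3 libraries per group, adjusted p = 6.25e-05), followed by AURKB with -1.35 ± 0.14 and PLK1 with -1.33 ± 0.16. BIRC5 differed by -1.32 ± 0.13, CDCA8 by -1.14 ± 0.14, TPX2 by -1.12 ± 0.13, NEK2 by -1.06 ± 0.17 and INCENP by -1.05 ± 0.16. BORA, with -0.87 ± 0.21 (adjusted p = 0.00927), and MASTL, with -0.65 ± 0.18 (adjusted p = 0.0203), had the smallest differences. The other 8 passed the cut-off of an unadjusted p under 0.05 with an absolute log2 fold change above 1, which 2.46% of all tested genes passed in the lower direction. Without Dox/IAA-treated parental replicate 2, this number was 5. The call for MASTL was lost without Dox/IAA-treated SDS22-degron replicate 2 (adjusted p = 0.0519), Dox/IAA-treated parental replicate 2 (adjusted p = 0.0614) or untreated parental replicate 3 (adjusted p = 0.0542), whereas the calls for the other 9 genes held when any of the 12 libraries was left out. When the difference was taken within each replicate number, it lay between -1.59 and -0.25 on the log2 scale over the 10 genes. The genes share the same libraries, and the numbers were not taken to pair the libraries in this comparison. These values are therefore a description and not independent repeats.

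**Figure D3:**
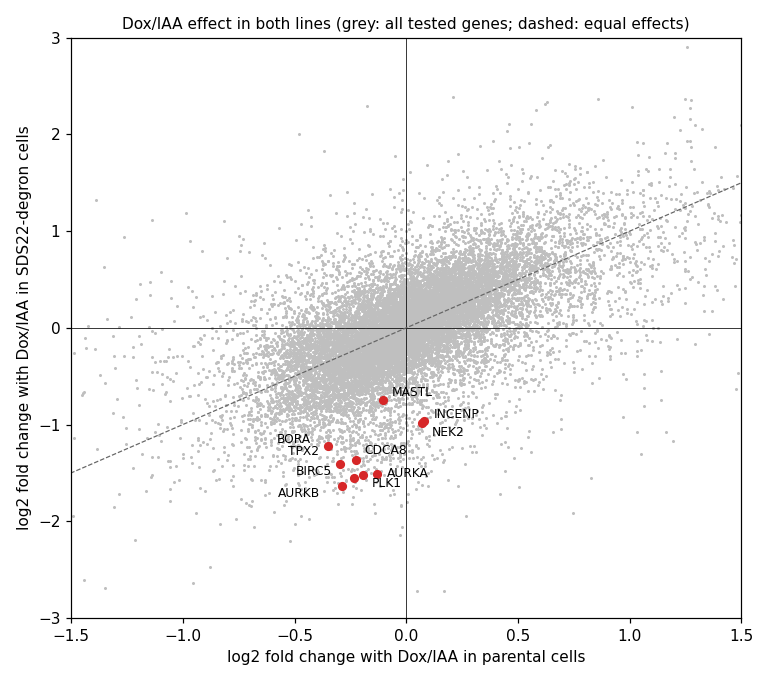
Log2 fold change with Dox/IAA in SDS22-degron cells (vertical axis) against that in parental cells (horizontal axis), with the 10 genes in red, 16479 of the 16657 tested genes in grey and equal effects on the dashed line. The 10 genes lie below the dashed line, 8 of them with a value below 0 on the horizontal axis, while INCENP and NEK2 lie just to the right of 0.

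Between the treated lines, in which both groups received Dox and IAA, all 10 genes were lower in SDS22-degron than in parental cells. The values given here are from the fit without a replicate block, although same-numbered treated libraries deviated together. With the block, no call of a member changed in this comparison. PLK1 differed most, with -1.64 ± 0.12 on the log2 scale (adjusted p = 7.22e-09), and MASTL least, with -0.66 ± 0.13 (adjusted p = 0.000395). The region of PLK1 was lower in this comparison too, with a median of -0.31 over chromosome 16 and -0.39 within 10 Mb on each side, and minus the chromosome median the difference of PLK1 was -1.32. The corresponding value for CDCA8 on chromosome 1 was -1.06. Among all tested genes, 23.1% were called lower and 21.8% higher, and the libraries of 27.2% did not overlap in the lower direction, as was the case for all 10 members. The cut-off with an absolute log2 fold change above 1 was passed by 6 members, against 3.38% of all tested genes in the lower direction. Of these 6, only PLK1 was clearly past it, with a 95% confidence interval of -1.88 to -1.39. CDCA8 (-1.17 ± 0.10) and NEK2 (-1.16 ± 0.12) were past it by their estimates. Their intervals, -1.39 to -0.96 for CDCA8 and -1.42 to -0.90 for NEK2, also held values short of the cut-off. AURKA, AURKB and BIRC5 lay at -1.01 and were thus just inside it, whereas TPX2, with -0.89 ± 0.09, was the nearest outside. The number was 3 without Dox/IAA-treated parental replicate 2 or without Dox/IAA-treated SDS22-degron replicate 3, and also with upper quartile normalization. The median over the 10 members was -1.01, which is smaller in size than the median within the SDS22-degron line.

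The untreated lines were compared to see which of the 10 genes already differed between them. Without treatment, AURKA was 0.37 ± 0.12 higher on the log2 scale in SDS22-degron than in parental cells (adjusted p = 0.0269), AURKB was 0.34 ± 0.09 higher (adjusted p = 0.00959) and BIRC5 was 0.31 ± 0.09 higher (adjusted p = 0.0181). INCENP (0.25 ± 0.11, adjusted p = 0.101) and TPX2 (0.23 ± 0.09, adjusted p = 0.0638) did not pass the test. For these 5 genes all SDS22-degron libraries lay above all parental ones, as for 21.6% of all tested genes, and for PLK1 they lay below, as for 21.9%. Over all tested genes, 13.2% were called higher and 15% lower in this comparison. PLK1 was 0.31 ± 0.11 lower (adjusted p = 0.0402), and it was the only member called in this direction. The genes around PLK1 were lower as well in the untreated SDS22-degron line: the median log2 fold change was -0.30 over the 725 tested genes of chromosome 16 and -0.40 over the 195 genes within 10 Mb on each side of PLK1. PLK1 lay between both medians, and the part of its region in its call was not tested. The regions around the 3 genes that were higher had medians between 0.02 and 0.07. These differences were small, and the calls for PLK1 and AURKA were each lost when any of 5 of the 6 untreated libraries was left out, the exception being untreated parental replicate 1 for PLK1 and untreated parental replicate 2 for AURKA. The call for BIRC5 was lost without untreated SDS22-degron replicate 1 or untreated parental replicate 1 or 3, and that for AURKB was kept whichever library was left out.

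**Figure D4:**
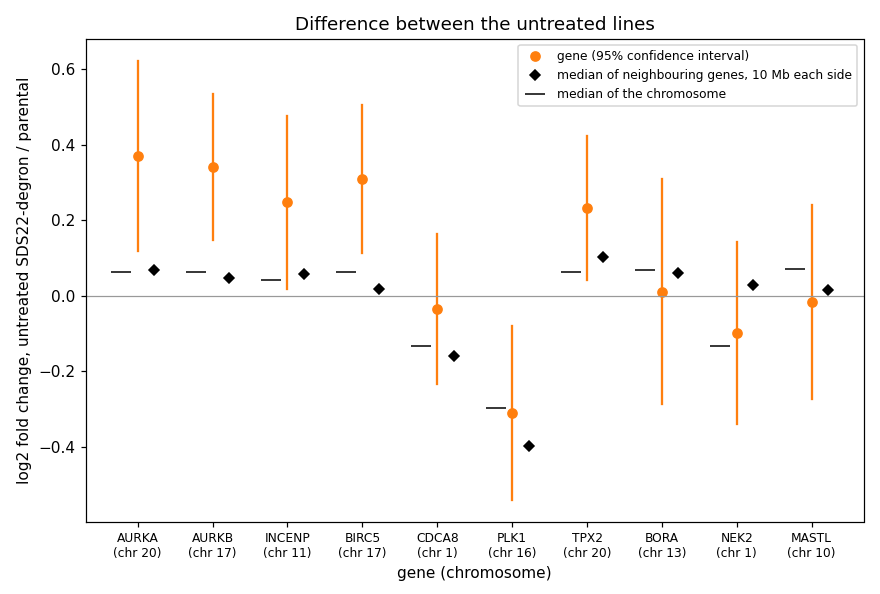
Log2 fold change (vertical axis) of each gene between untreated SDS22-degron and untreated parental cells with its 95% confidence interval (orange), beside the median of all tested genes within 10 Mb on each side (diamonds) and on the same chromosome (dashes). PLK1, at -0.31, lies near both medians of its region, while AURKA, AURKB and BIRC5 lie above theirs.

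To compare the genes with each other, CPM were divided by the deposited gene length in kb. In untreated parental cells, TPX2 was most abundant with 86.8 ± 4.9 CPM per kb (SD, n = 3), followed by BIRC5 with 60.6 ± 4.5, PLK1 with 35.9 ± 4.2, CDCA8 with 33.0 ± 2.5, AURKB with 28.1 ± 0.78, AURKA with 27.1 ± 5.2 and INCENP with 22.8 ± 2.9. NEK2, BORA and MASTL formed the low end, with 13.3 ± 1.6, 13.2 ± 3.1 and 9.32 ± 0.99 CPM per kb. The libraries of AURKA, at 21.6 to 31.9 CPM per kb, overlapped with those of PLK1, CDCA8, AURKB and INCENP. PLK1 also overlapped with CDCA8, and NEK2 with BORA, so that the order within these pairs was not resolved. In untreated SDS22-degron cells, TPX2 and BIRC5 were again highest, with 101.9 ± 2.2 and 75.1 ± 1.4 CPM per kb, and AURKB (35.6 ± 0.63) and AURKA (35.0 ± 0.50) overlapped with each other above CDCA8 (32.2 ± 1.8), PLK1 (28.9 ± 0.55) and INCENP (27.1 ± 0.50). After Dox/IAA, TPX2 and BIRC5 remained on top with 38.2 ± 3.1 and 25.6 ± 2.5 CPM per kb. INCENP came next with 13.9 ± 1.5, having moved from the seventh to the third place, and its libraries overlapped with those of CDCA8 (12.5 ± 1.6) and AURKA (12.3 ± 1.1) but not with those of AURKB (11.4 ± 0.56) or PLK1 (10.1 ± 0.75). CDCA8, AURKA and AURKB overlapped with each other as well. NEK2 (6.25 ± 1.0), BORA (5.69 ± 0.63) and MASTL (5.48 ± 1.0) overlapped with each other.

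Ratios taken within a library, which no scaling factor between libraries can change, describe the make-up of each module. The AURKB/INCENP ratio per kb was 1.27 to 1.34 in untreated and 0.777 to 0.915 in Dox/IAA-treated SDS22-degron cells. In parental cells it was 1.12 to 1.42 without treatment and 0.896 to 0.996 with Dox/IAA, so that it was lower after Dox/IAA in both lines. The MASTL/PLK1 ratio was 0.308 to 0.332 in untreated and 0.438 to 0.614 in Dox/IAA-treated SDS22-degron cells, whereas both parental groups overlapped, with 0.230 to 0.294 and 0.263 to 0.290. The BORA/PLK1 ratio was 0.427 to 0.474 in untreated and 0.524 to 0.622 in Dox/IAA-treated SDS22-degron cells, and 0.284 to 0.528 and 0.308 to 0.358 in the parental groups. In the same order for SDS22-degron cells, TPX2/AURKA was 2.84 to 2.97 and 2.98 to 3.36, AURKA/AURKB was 0.970 to 1.01 and 1.03 to 1.13, and AURKB/CDCA8 was 1.06 to 1.14 and 0.840 to 0.989, without overlap, whereas both parental groups overlapped in each of these ratios. BIRC5/CDCA8 overlapped between both SDS22-degron groups. With 3 libraries against 3, an exact permutation test of a ratio cannot give a two-sided p below 0.1, and these ratios are therefore given as values.

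**Figure D5:**
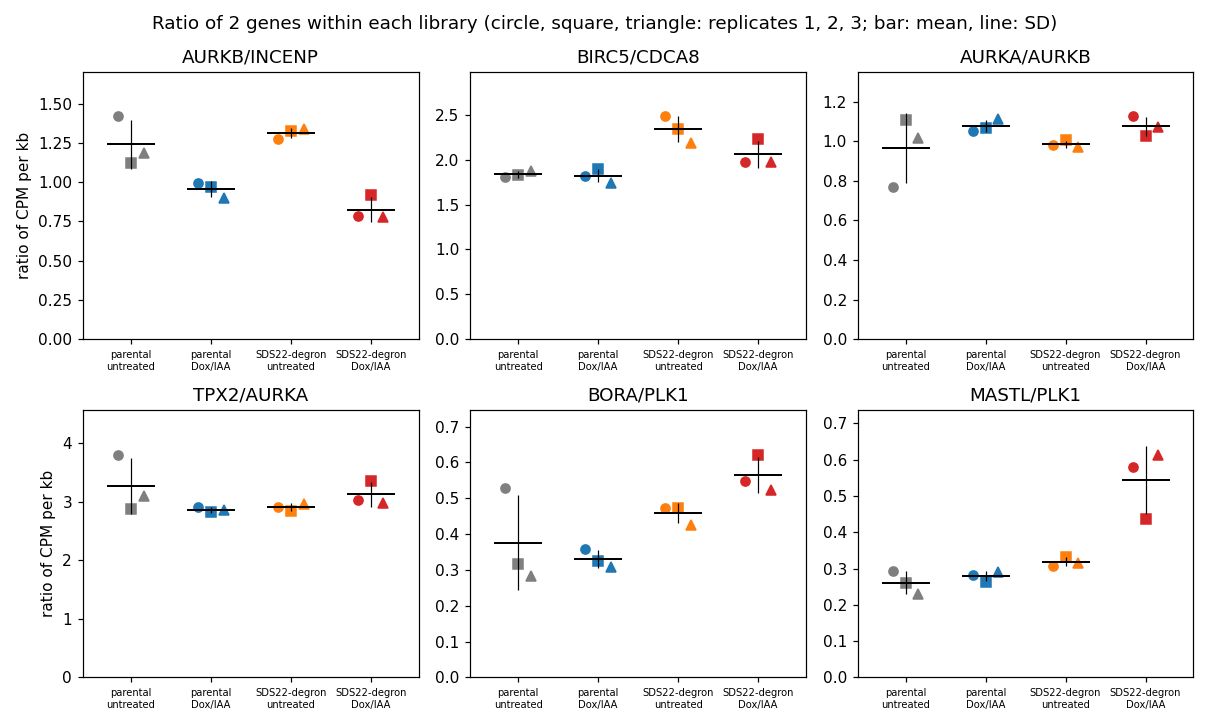
Ratio of the CPM per kb of 2 genes within each library (vertical axes, from 0), grouped by line and treatment, with each point 1 library, the bar the mean and the line the SD of 3 libraries. MASTL/PLK1 is at 0.438 to 0.614 in Dox/IAA-treated SDS22-degron cells and at 0.230 to 0.332 in the other libraries, while AURKB/INCENP is lower after Dox/IAA in both lines.

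The genes around these kinases were described with 6 lists from general knowledge, chosen with earlier results of these data known. The counts of these lists are to be read against the shares of all tested genes given above. Of the 11 genes of the CDK1 module, which drives the entry into mitosis, 11 were called lower with Dox/IAA in SDS22-degron cells and 9 in the interaction, with a median interaction of -1.18. CCNB1, the cyclin B1 partner of CDK1 (-1.41 ± 0.17), CDC25A, a phosphatase that activates CDK1 (-1.24 ± 0.16), and CDK1 itself (-1.18 ± 0.16) had the smallest p. Of 13 tested other mitotic kinases or relatives of PLK1 and NEK2, 8 were called lower and 1 higher in the interaction, with a median of -0.96. HASPIN, which phosphorylates histone H3 and so recruits the passenger complex, differed by -1.40 ± 0.14, and the checkpoint kinases BUB1 and BUB1B by -1.42 ± 0.18 and -1.34 ± 0.15. NEK7, a NIMA-family kinase, was the 1 called higher (0.34 ± 0.11, adjusted p = 0.0467). Its mean was 42.6 CPM in untreated and 51.7 CPM in Dox/IAA-treated SDS22-degron cells, against 57.6 and 55.3 CPM in parental cells. Among 17 tested recruiters, scaffolds and effectors of the Aurora kinases and PLK1, 14 were called lower in the interaction (median -1.05). These included the midzone bundling protein PRC1 (-1.19 ± 0.12) and the kinesins KIF20A (-1.24 ± 0.14), which carries the passenger complex to the midzone, and KIF20B (-1.30 ± 0.15). PAK1 and AJUBA of this list were called higher with Dox/IAA in SDS22-degron cells, by 0.28 ± 0.06 and 0.40 ± 0.10, with interactions of 0.05 ± 0.09 and 0.19 ± 0.15 that did not pass the test.

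The phosphatases that oppose these kinases, and the substrates of MASTL, gave other values. Of 19 genes, 3 were called lower in the interaction, and the median was -0.11. These 3 were MKI67 (-1.38 ± 0.15) and CDCA2 (-1.16 ± 0.18), both of which bring PP1 to mitotic chromosomes, and ANKRD52 (-0.50 ± 0.12), a subunit of protein phosphatase-6. The mean of ANKRD52 was 174 CPM in untreated and 151 CPM in Dox/IAA-treated SDS22-degron cells. In parental cells it was higher with Dox/IAA, with 145 CPM without and 178 CPM with treatment. The log2 fold change with Dox/IAA in SDS22-degron cells was 0.00 ± 0.07 for ENSA and 0.21 ± 0.08 for ARPP19, which are the substrates of MASTL, and ARPP19 was called higher (adjusted p = 0.0235). PPP6R2 (0.54 ± 0.07) and ANKRD44 (0.66 ± 0.22), further subunits of protein phosphatase-6, were called higher as well, and PPP1CC, a catalytic subunit of PP1, was called lower (-0.42 ± 0.08). The other catalytic subunits of PP1 did not have lower means with Dox/IAA in this line. PPP1CA had 240 CPM without and 252 CPM with treatment, and PPP1CB had 117 and 125 CPM. In parental cells, ARPP19 (0.20 ± 0.08), PPP6R2 (0.33 ± 0.07) and ANKRD44 (0.78 ± 0.23) were called higher as well. The interactions did not pass the test, with 0.01 ± 0.11 for ARPP19, 0.21 ± 0.09 for PPP6R2, -0.12 ± 0.32 for ANKRD44 and -0.25 ± 0.11 for PPP1CC. Among 15 transcriptional regulators of G2/M genes, 6 were called lower in the interaction and 1 higher, with a median of -0.33. The activators MYBL2 (-1.42 ± 0.17), FOXM1 (-1.17 ± 0.15) and E2F1 (-1.20 ± 0.17) were lower. RBL2, which encodes the p130 subunit of the repressive DREAM complex, had an interaction above 0 (0.55 ± 0.10, adjusted p = 0.0012). Its mean was 45.2 CPM in untreated and 68.5 CPM in Dox/IAA-treated SDS22-degron cells, against 63.5 and 65.6 CPM in parental cells. The lines thus differed mainly without treatment. Among 10 factors that destroy these kinases at mitotic exit, 5 were called lower in the interaction, with a median of -0.37. The ubiquitin-conjugating enzymes UBE2S (-0.85 ± 0.10) and UBE2C (-1.16 ± 0.16) and the activator CDC20 (-1.40 ± 0.17) of the anaphase-promoting complex had the smallest p. With Dox/IAA in SDS22-degron cells, 9 genes of the list of other kinases were called lower and 1 higher, 15 and 2 of the recruiters and effectors, 5 and 3 of the phosphatases, 10 and 1 of the regulators and 6 and 2 of the last list. FZR1, which activates the same complex in G1, and BTRC, a subunit of another ubiquitin ligase, were called higher with Dox/IAA in SDS22-degron cells, by 0.23 ± 0.08 and 0.25 ± 0.07, with interactions of -0.06 ± 0.11 and 0.05 ± 0.10 that did not pass the test.

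The mean profile of the 10 members over the 12 libraries was then set beside every tested gene with a mean of at least 10 CPM. Likeness was the root-mean-square difference in centred log2 CPM, for which the median gene had 0.548. The closest genes outside the list were CDCA5 with 0.0426, NCAPH with 0.0549, FOXM1 with 0.0631, KIF4A with 0.0671 and TOP2A with 0.0678, over 12 libraries each. CDCA5 is sororin, which protects sister chromatid cohesion, NCAPH is a condensin subunit, KIF4A is a chromosome-bound kinesin and TOP2A is a topoisomerase. Among the members, CDCA8 (0.0944) and TPX2 (0.0991) were closest to their common profile and MASTL (0.221) and PLK1 (0.273) farthest from it.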

How the data were processed

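RNA of 12 samples (4 groups of 3) was poly-A selected and sequenced as stranded single reads by the authors, who deposited raw read counts per gene, with the length, position and GC content (in percent) of each gene. Per the submitters' processing notes, the tools were cutadapt 1.15, Bowtie2 2.3.3.1, STAR 2.5.2b, SAMtools 1.5 and featureCounts 1.5.3, with the build GRCh38. Their order and the strand setting are not given in the sources used here. Groups were taken from the sample labels, which number 3 biological replicates.

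Genes were filtered with filterByExpr (minimum count 10), scaled with TMM factors, and a model with 1 mean per group was fitted in edgeR 4.0.16 (R 4.3.3). The quasi-likelihood F test was used for 5 comparisons, with Benjamini-Hochberg adjustment of p over 16657 genes. The cut-off of an unadjusted p under 0.05 with an absolute log2 fold change above 1 is the study's. The common biological coefficient of variation was 7.48%. The code was tested on simulated data. No replicates agreed within counting noise.

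The members and lists were chosen with earlier results of these data known. Named are all members, for each list the 3 genes with the smallest p in the interaction and genes called in the opposite direction, the 5 genes with the closest profile, PPP1R7, and genes that overlap a member or are its pseudogene. HASPIN is listed under its older symbol, GSG2. 1 marker gene is not reported here. PPP1CA, PPP1CB, PPP1CC, ENSA, FBXO5, WEE1 and PKMYT1 were named after their values were seen.

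Same-numbered libraries were checked for pairing. Their deviations from the group means correlated at -0.057 to 0.246 in 18 pairs of libraries. All 3 pairs were over 0.1 for Dox/IAA in parental cells and for the treated lines, and not in the other comparisons. The main fit had no replicate block in any comparison. Estimates, SEs and adjusted p are from this unpaired fit unless the block is named, and the block was fitted as an alternative. Alternatives were edgeR's likelihood ratio test, DESeq2 1.42.0, other scalings and filters, only the groups compared, the block, a GC correction, glmTreat against a log2 fold change of 0.5, and leaving out each library.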

Additional observations from a re-analysis of the deposited data

Results flagged for a closer look

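Of the 10 genes, each responded differently to Dox/IAA in SDS22-degron and in parental cells by the interaction term of the edgeR fit. The effect in SDS22-degron cells minus that in parental cells was, on the log2 scale, -1.38 for AURKA, -1.35 for AURKB, -1.05 for INCENP, -1.32 for BIRC5, -1.14 for CDCA8, -1.33 for PLK1, -1.12 for TPX2, -0.87 for BORA, -1.06 for NEK2 and -0.65 for MASTL. The same test called 8.35% of all tested genes in this direction.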

How the results depend on the processing

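Between the treated lines and within the SDS22-degron line, the direction of all 10 members held in all 18 alternatives, and the only call lost was that of MASTL with glmTreat (adjusted p = 0.26 and 0.0645). In the interaction, the direction held in all 23 alternatives, and glmTreat ended the calls for BORA (adjusted p = 0.343) and MASTL (adjusted p = 0.94). Only the groups compared could not be fitted for the interaction, which needs all 4. The number past the cut-off with an absolute log2 fold change above 1 was 3 between the treated lines with upper quartile scaling, and leaving out 1 library gave 3 to 6 there and 5 to 8 in the interaction. In the untreated lines, 0 members were called lower with library size only, upper quartile scaling or glmTreat, and 0 to 1 on leaving out a library. The number called higher there was 5 without a filter or with only the groups compared, 1 with the GC correction, 0 with glmTreat and 1 to 5 on leaving out a library. In parental cells, the number called lower with Dox/IAA was 0 with library size only, glmTreat or only the groups compared, 5 without a filter, 4 with the replicate block, 6 with the GC correction alone or with the replicate block, and 0 to 6 on leaving out a library. The replicate block changed no call in the other comparisons but that of TPX2 between the untreated lines, which it gained (adjusted p = 0.0295). With glmTreat, the number called lower was 2 in the phosphatase list and 5 in the regulator list in SDS22-degron cells, and 3 in each of the regulator and destruction lists in the interaction.

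Values near 0 changed sign without passing the test. Between the untreated lines, MASTL was at 0.0102 on the log2 scale with library size only and 0.019 with upper quartile scaling, and BORA at -0.00011 without a filter, -0.0194 with the GC correction and -0.00916 with the GC correction and replicate block. On leaving out a library, the untreated lines gave -0.0877 to 0.0867 for MASTL, -0.135 to 0.214 for BORA, -0.0829 to 0.0476 for CDCA8 and -0.171 to 0.00938 for NEK2. With Dox/IAA in parental cells, INCENP was at -0.0512 with the GC correction and -0.0526 with the GC correction and replicate block. Leaving out a library gave -0.0611 to 0.198 for INCENP, -0.0576 to 0.165 for NEK2 and -0.278 to 0.00894 for AURKA there. The cause of these changes was not tested. With SEs of 0.09 to 0.15 between groups of 3 libraries, changes of the size seen in parental cells were at the limit of detection.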
